A study of Mus musculus with 6 samples.

Results

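The family described here is the set of mouse microRNAs (miRNAs) mmu-miR-15a, mmu-miR-15b, mmu-miR-16, mmu-miR-195 and mmu-miR-497, written without the species prefix from here on, which share a seed and lie outside the X-linked cluster of related miRNAs. Members were taken by name from the scanner files, and all 5 names were found among 690 mouse miRNAs on the array. The study profiled total RNA of C57BL/6 mice aged 12 days, taken from 3 zones of growth plate cartilage of the femur: proliferative, prehypertrophic and hypertrophic, with 2 arrays for each. Every array received 100 ng of total RNA pooled from 5 growth plates, with no treatment or genetic change named in any group. No label says which animals entered which pool, so p-values measure the spread between these 6 samples, part of which may be technical. The zones follow the maturation of growth plate chondrocytes, and the comparison asks how the levels of the family differ along it.

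A miRNA guides the silencing of messenger RNAs that pair with its seed, bases 2 to 8 from its 5′ end. The miR-15/16 family is known for holding back cell division: its targets in many cell types include cyclin D1, cyclin E1, Cdk6, Chek1 and Wee1, and miR-15a and miR-16 also repress the survival gene Bcl2. miR-195 and miR-497 are associated with cell cycle exit in postnatal heart muscle and with quiescence of muscle stem cells. In the growth plate, chondrocytes divide in columns in the proliferative zone, leave the cycle in the prehypertrophic zone and enlarge in the hypertrophic zone.

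The mature sequences are shown because the shared seed defines the family and the remaining bases decide what the probes can tell apart. They are from RefSeq (GRCm38.p6), and capitals mark the seed. The last lines give miR-322 and miR-503 of the X-linked cluster for comparison.
miR-15a: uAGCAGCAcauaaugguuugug
miR-15b: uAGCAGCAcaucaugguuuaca
miR-16: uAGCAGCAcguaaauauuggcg
miR-195: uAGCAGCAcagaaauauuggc
miR-497: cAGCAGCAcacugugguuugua
miR-322: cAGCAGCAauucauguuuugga
miR-503: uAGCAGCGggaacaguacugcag

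All 5 members and miR-322 carry the seed AGCAGCA, whereas miR-503 carries AGCAGCG. Aligned from the 5′ end without gaps, miR-16 and miR-195 were the closest pair, with 2 differences over 21 bases (G10A and U11G, counted from the 5′ end, miR-16 first). miR-15a and miR-15b differed at 4 of 22 bases, and miR-16 and miR-497, the most distant pair, at 11 of 22. Binding of one member to another member's probes was not tested.

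The family is encoded in 3 clusters, each of 2 hairpins on one strand (RefSeq, GRCm38.p6). Mature miR-15a lies at chr14:61632075-61632096 (minus strand) and miR-16 of the same cluster at chr14:61631936-61631957, with 54 bases between the hairpins, within the span of the long noncoding RNA gene Dleu2. Mature miR-15b lies at chr3:69009775-69009796 (plus strand) and the second copy of miR-16 at chr3:69009918-69009939, with 66 bases between the hairpins, within the span of Smc4, which encodes a condensin subunit. Mature miR-497 lies at chr11:70234730-70234751 and miR-195 at chr11:70235062-70235082 (both plus strand), with 241 bases between the hairpins. Both copies of miR-16 give the same mature sequence, so its signal sums the chromosome 14 and chromosome 3 clusters and cannot be assigned to either.

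Values are log2 signals after scaling each array to the 75th percentile of probes well above background on all 6 arrays, with a floor of 3.66. Each miRNA is represented by the brighter of its probes, and no member's level is set against another's, since probes differ in brightness. Zones were compared with limma, a linear model that shares variance estimates across all 226 tested miRNAs, and a difference passed, or was called, at a Benjamini-Hochberg adjusted p under 0.05. The outer zones are the proliferative and the hypertrophic zone, and the first and second step lead into and out of the prehypertrophic zone. A probe counted as well above background on an array where the scanner software marked more of its spots so than not. Each array held 13800 miRNA spots, 24.2% to 27.9% of them well above background, and no spot was saturated. Each of the 10 member probes had 10 spots, and after outlier spots were left out the coefficient of variation between spots of the brighter probe ran from 1.89% to 13.6% per array. All 5 members were well above background on all 6 arrays, except miR-15a on the second proliferative array. The labelled tissue was checked by its markers: the chondrocyte miRNAs miR-140 and miR-140* were well above background on all 6 arrays, and the 4 skeletal muscle miRNAs looked for, among them miR-206, on none.

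**Figure D1:**
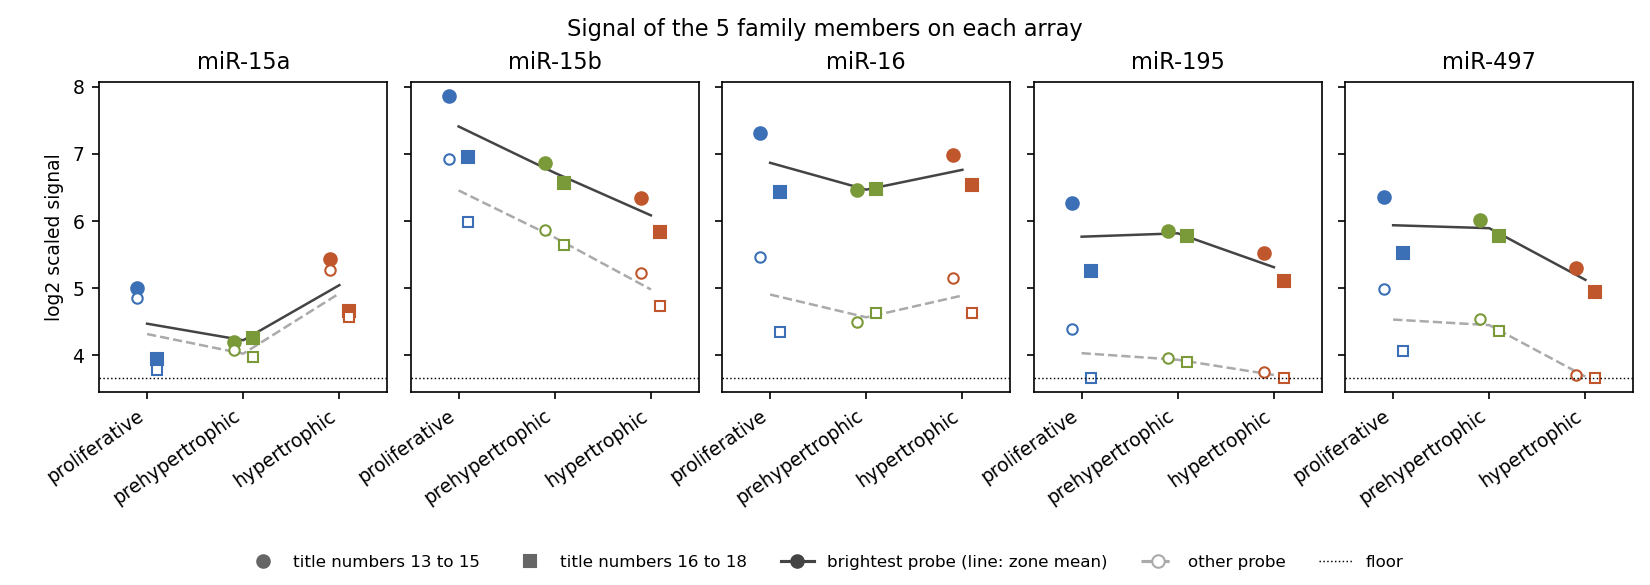
Log2 scaled signal (vertical axis) of each member on the 6 arrays by zone, filled for the brighter probe and open for the other, circles for title numbers 13 to 15 and squares for 16 to 18, with lines through the zone means and the floor dotted. miR-15b steps down from zone to zone, miR-195 and miR-497 are lowest in the hypertrophic zone, and the circle lies above the square for every member in the proliferative and hypertrophic zones.

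Within the chromosome 3 cluster, miR-15b was lower in each later zone and fell between the outer zones, the 1 call among the family. Its log2 signal was 7.86 and 6.96 on the first and second proliferative arrays, 6.87 and 6.57 on the prehypertrophic arrays and 5.83 and 6.34 on the hypertrophic arrays. No array of a later zone reached the lowest array of an earlier zone. The hypertrophic level was 2.51-fold lower than the proliferative level, from 7.41 ± 0.64 to 6.09 ± 0.36 (SD, n = 2 each; log2 fold change -1.33, SE 0.34, limma adjusted p = 0.0275). The 95% interval of that change ran from -2.07 to -0.58. The single steps were of like size and did not pass: -0.69 from the proliferative to the prehypertrophic zone (SE 0.34, limma adjusted p = 0.436) and -0.63 from there to the hypertrophic zone (SE 0.34, limma adjusted p = 0.278). The limma F test over the 3 zones did not pass either (adjusted p = 0.078). The call ended without the first proliferative array (log2 fold change -0.87, adjusted p = 0.171), the first hypertrophic array (-1.07, 0.41) or the second (-1.58, 0.21), and under the other 4 scalings (-1.32 to -0.84, adjusted p = 0.168 to 0.251). It held in 11 of 23 other settings, among them normexp background correction (-0.87, adjusted p = 0.0463), and the sign was the same in all 23. In some of the 23, such as the other floors and filters, the fold change stayed at -1.33, so the sign there is no check. Of the 11, the slide row block and the fit without the second proliferative array gave the same value (-1.78).

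miR-16, made from both the chromosome 3 and the chromosome 14 cluster, showed no called zone difference. Its log2 signal was 7.31 and 6.43 on the proliferative arrays, 6.46 and 6.47 on the prehypertrophic arrays and 6.54 and 6.99 on the hypertrophic arrays. The proliferative pair enclosed all other values, and both prehypertrophic arrays lay just below both hypertrophic arrays. Between the outer zones the log2 fold change was -0.10 (SE 0.32, 95% interval -0.82 to 0.61, limma adjusted p = 0.896). That sign turned positive without scaling (0.38), with median scaling (0.01) and without the first proliferative (0.33) or first hypertrophic array (0.12). Its differences at the first and second step were -0.40 and 0.30 (limma adjusted p = 0.676 and 0.562), and with the slide row as a block they were 0.04 and -0.58.

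miR-15a, the chromosome 14 partner of miR-16, showed no called zone difference. Its log2 signal was 5.0 and 3.94 on the proliferative arrays, 4.20 and 4.25 on the prehypertrophic arrays and 4.66 and 5.43 on the hypertrophic arrays. Both hypertrophic arrays lay above both prehypertrophic arrays. The proliferative pair enclosed the prehypertrophic arrays and the first hypertrophic array, and the second hypertrophic array lay above it. Its difference from the prehypertrophic to the hypertrophic zone was 0.82 (SE 0.37, 95% interval -0.00 to 1.65, limma adjusted p = 0.275), and between the outer zones 0.57 (SE 0.37, 95% interval -0.25 to 1.40, adjusted p = 0.423). Neither passed. The outer-zone value was -0.01 with normexp background correction, 0.22 with 2 times the floor and 0.97 without scaling. It was 0.04 without the second proliferative array, where miR-15a was not well above background, 1.11 without the first, and 0.19 or 0.96 when the hypertrophic zone lost its second or its first array. With the slide row as a block, the difference between the later zones turned to -0.25.

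In the chromosome 11 cluster, miR-497 and miR-195 had their lowest means in the hypertrophic zone, without a call for either. The log2 signal of miR-497 was 6.35 and 5.52 on the proliferative arrays, 6.02 and 5.77 on the prehypertrophic arrays and 4.95 and 5.30 on the hypertrophic arrays. Both hypertrophic arrays lay below all others, and the prehypertrophic pair lay inside the proliferative pair. Its log2 fold change between the outer zones was -0.81 (SE 0.32, 95% interval -1.51 to -0.12, limma adjusted p = 0.122), and from the prehypertrophic to the hypertrophic zone -0.77 (SE 0.32, adjusted p = 0.255). The outer-zone difference passed with the run of title numbers as a block and without the second proliferative array (-1.23, adjusted p = 0.0279). The fit with the slide row as a block gave the same value, since it rests on the first proliferative array alone.

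miR-195 followed a like course with smaller differences. Its log2 signal was 6.27 and 5.26 on the proliferative arrays, 5.86 and 5.78 on the prehypertrophic arrays and 5.10 and 5.52 on the hypertrophic arrays. The hypertrophic pair lay below the prehypertrophic pair but overlapped the proliferative pair. The log2 fold change was -0.46 between the outer zones (SE 0.34, 95% interval -1.20 to 0.29, limma adjusted p = 0.504) and -0.51 from the prehypertrophic to the hypertrophic zone (SE 0.34, adjusted p = 0.369). The outer-zone value was 0.03 without scaling and 0.05 without the first proliferative array. At the first step miR-195 and miR-497 differed by 0.05 and -0.04 (adjusted p = 0.988 each), with intervals of -0.70 to 0.80 and -0.74 to 0.65.

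Set against all miRNAs tested, 1 of 5 members fell between the outer zones, where 8.85% of 226 tested miRNAs were called lower, 5.75% higher and 14.6% in either direction. Over all tested miRNAs, 13 were called higher and 20 lower, a split that depended on scaling. Unscaled signals gave 15 higher and 0 lower, quantile-normalized signals 11 and 8, median-scaled signals 11 and 1, and the percentile taken over every probe 10 and 1. Arrays of the outer zones did not overlap for 2 members (miR-15b and miR-497), both lower in the hypertrophic zone, beside 27% lower and 46.9% in either direction among all tested. The members' median log2 fold change there was -0.46, against -0.00 for all tested. Without scaling the median of all tested moved by 0.48 and that of the members to 0.03. At the first step 0 of 5 members were called by limma, beside 2.21% of all. There 0 had an unadjusted limma p under 0.05, beside 29 of 226 tested miRNAs. There 1 member, miR-15b, had arrays without overlap, lower in the later zone, beside 24.3% lower and 36.3% in either direction. At the second step 0 were called, beside 1.33% of all, and 1, miR-497, had an unadjusted limma p under 0.05, beside 34 of 226. All 5 members were without overlap between the prehypertrophic and hypertrophic arrays, 3 lower (miR-15b, miR-195 and miR-497) and 2 higher (miR-15a and miR-16), beside 32.7% lower and 66.8% in either direction. The F test over the 3 zones passed for 0 members and 7.96% of miRNAs. A lower signal in bulk cartilage cannot tell fewer cells of a type from less of the miRNA per cell.

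**Figure D2:**
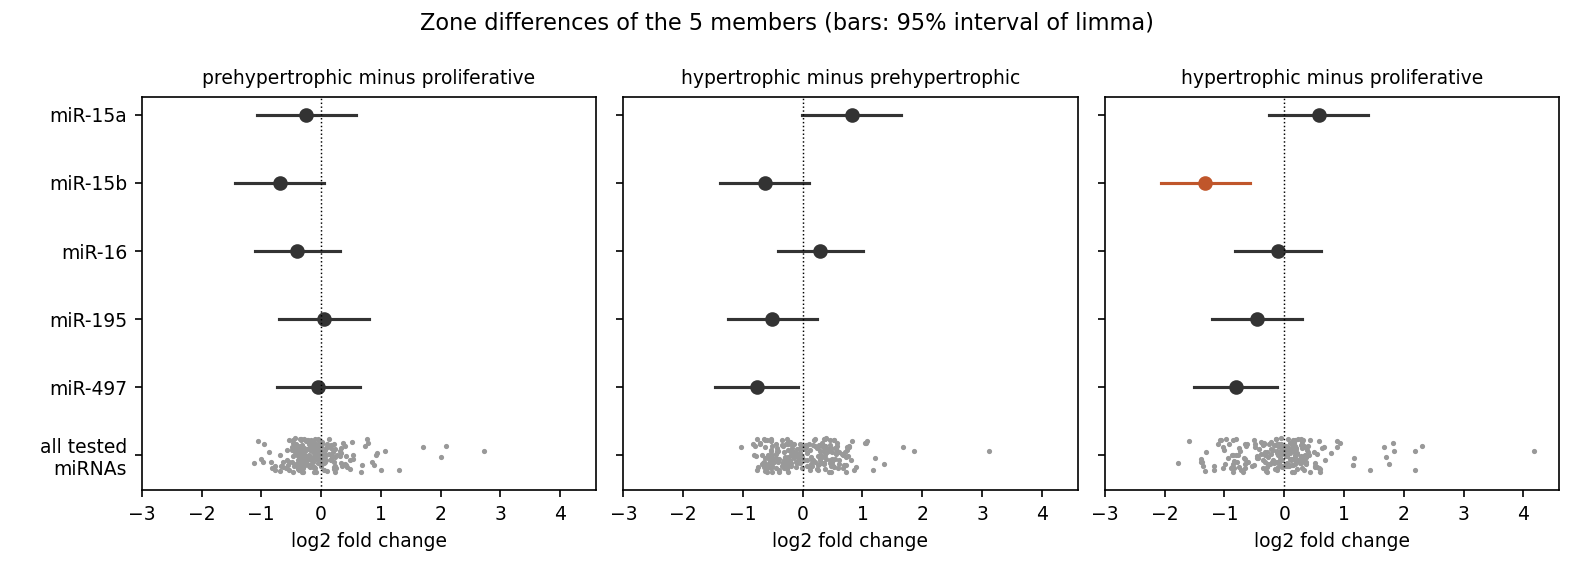
Log2 fold change (horizontal axis) of each member in the 3 comparisons with its 95% limma interval, orange where the adjusted p was under 0.05, and all 226 tested miRNAs as grey points below. Only miR-15b between the outer zones is orange, at -1.33, and miR-15a lies on the positive side there at 0.57.

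Each member had a second, dimmer probe, and the probes of a member gave like zone courses, except for miR-195 at the first step. There its brighter probe gave 0.05 and its second -0.10. Fitted with every probe as its own row, both probes of miR-15b were lower in the hypertrophic than in the proliferative zone, with log2 fold changes of -1.33 (limma adjusted p = 0.0354) and -1.48 (adjusted p = 0.0216). These were 2 of 10 member probes called, both lower, beside 4.04% lower and 8.97% in either direction among 446 tested probes. At the first and second step 0 member probes were called, beside 2.24% and 0.897% of all. The second probe of miR-15b read 6.92 and 5.99 on the proliferative arrays, 5.87 and 5.64 on the prehypertrophic arrays and 4.73 and 5.23 on the hypertrophic arrays, again without overlap between zones. The second probe of miR-497 gave -0.85 (adjusted p = 0.124), that of miR-195 -0.33, that of miR-15a 0.61 and that of miR-16 -0.01 between the outer zones. Those of miR-195 and miR-497 were well above background on 4 of 6 arrays each, not on the second proliferative or the first hypertrophic array. The miR-195 probe was at the floor on both of these and the miR-497 probe on the hypertrophic one, so -0.33 and -0.85 depend on the floor. Probes of one miRNA read the same RNA and are not replicates.

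In the proliferative and the hypertrophic zone, the arrays of a zone differed in one direction for all 5 members. All 5 members were higher on the first than on the second proliferative array, by 0.83 to 1.07 log2 units, whereas 42% of tested miRNAs were higher there and the median absolute gap over all was 0.44. All 5 were higher on the second than on the first hypertrophic array, by 0.35 to 0.78, beside 42.9% of tested miRNAs. Both gaps are not particular to the family, since the other miRNAs named below as most like a member share them. miR-140, for example, read 11.26 and 10.55 on the proliferative and 9.94 and 10.35 on the hypertrophic arrays. Among all tested miRNAs, 54.9% and 54.4% had the opposite gap in these zones. In the prehypertrophic zone 3 of 5 were higher on the first array, with gaps of -0.05 to 0.30. The higher arrays have title numbers 13 and 15 and the lower ones 16 and 18. No label calls these runs of numbers batches. Within the runs of 13 to 15 and of 16 to 18, the outer-zone difference of miR-15b was -1.52 and -1.13, that of miR-497 -1.05 and -0.58 and that of miR-195 -0.75 and -0.16. That of miR-15a was 0.43 and 0.72, and that of miR-16 -0.32 and 0.11, so every member but miR-16 kept its sign within both runs. With the run as a block, miR-497 passed as well (limma adjusted p = 0.0466).

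A difference between 2 members on one array depends on that array's scaling factor only where a value meets the floor. Quantile normalization, which applies no such factor, can move it, and only its change between zones is read here. The log2 difference of miR-15b minus miR-16, neighbours on chromosome 3, was 0.56 and 0.53 on the proliferative arrays, 0.41 and 0.09 on the prehypertrophic arrays and -0.71 and -0.65 on the hypertrophic arrays. It thus moved by -1.22 between the outer zones, from 0.54 ± 0.02 to -0.68 ± 0.04 (SD, n = 2 each), and by -1.21 and -1.23 within the runs. With normexp it moved by -0.77. The values of the outer zones lay further apart than the 2 arrays of any zone, of which the prehypertrophic pair was the widest. miR-16 also receives the chromosome 14 copy, and the part of that copy in this change was not tested.

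The difference of miR-15a minus miR-16, neighbours on chromosome 14, moved the opposite way, by 0.68, from -2.30 and -2.49 on the proliferative arrays to -1.88 and -1.56 on the hypertrophic arrays. On the second proliferative array miR-15a was not well above background, so -2.49 does not compare signals that were both above background. The change was 0.32 with 2 times the floor and 0.08 with normexp. miR-15a minus miR-15b, paralogues from the 2 clusters, moved by 1.90, by 1.54 with 2 times the floor and by 0.85 with normexp. This change follows from the differences of both from miR-16 and is no separate result. miR-195 minus miR-497 moved by 0.36, from -0.08 and -0.26 to 0.15 and 0.23, and by 0.14 with normexp. The outer zones did not overlap for any of the 4 pairs, and each kept its sign in 17 other settings. Among these, other scaling factors cannot move a difference where no value meets the floor, so they add no check on it. The share without overlap among other pairs of miRNAs is not given here. With 2 against 2 arrays the two-sided exact permutation test cannot go below p = 0.333, which all 4 pairs had (0.333 adjusted over the pairs).

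**Figure D3:**
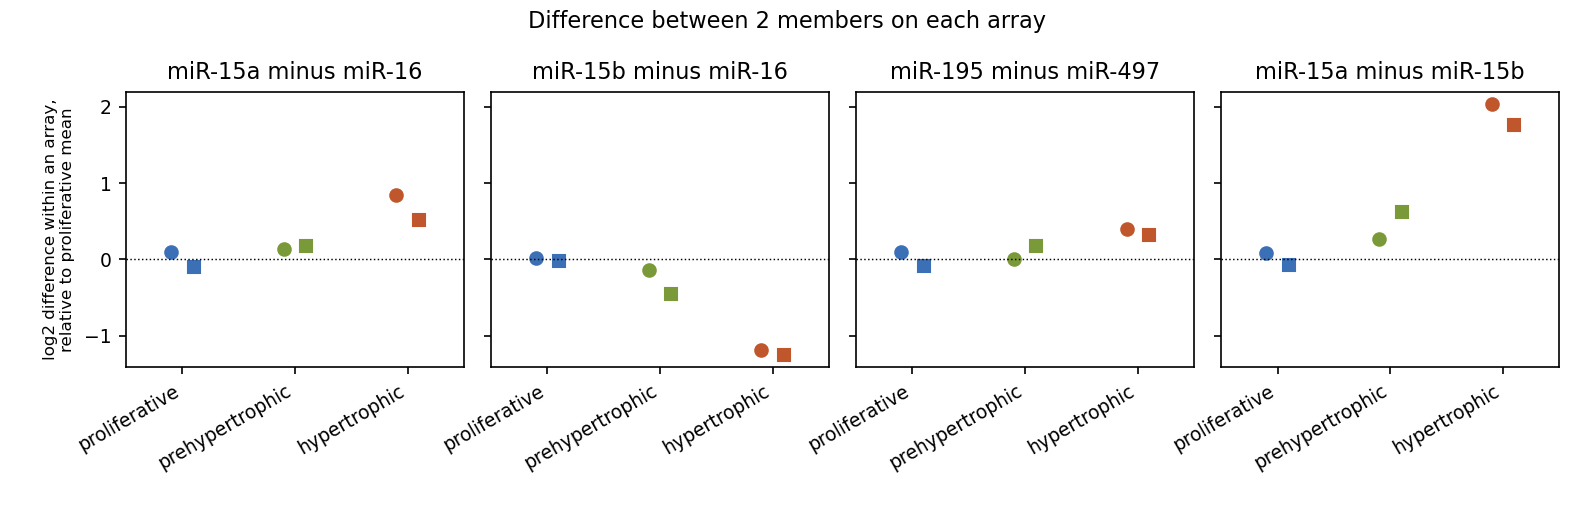
Log2 difference between 2 members within each array (vertical axis), set to 0 at the proliferative mean, by zone, circles for title numbers 13 to 15 and squares for 16 to 18. miR-15b minus miR-16 moves by -1.22 to the hypertrophic zone, miR-15a minus miR-15b by 1.90, and miR-195 minus miR-497 moves by 0.36.

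Across the 6 arrays the members fell into unlike courses, given as descriptions since zone and array gaps enter every value. Pearson's r was 0.93 between miR-195 and miR-497, 0.91 between miR-15b and miR-497, 0.81 between miR-15a and miR-16, 0.53 between miR-15b and miR-16 and -0.03 between miR-15a and miR-15b. The values below are the 3 highest per member among 226 tested miRNAs, so they were picked for being high. The usual r between tested miRNAs is not given here. Among all tested miRNAs, those most like miR-15b were miR-130a (r = 0.993), let-7f (0.974) and miR-140* (0.973). For miR-497 they were miR-98 (0.988), miR-140 (0.984) and let-7g (0.980), and for miR-195 let-7i (0.997), let-7g (0.982) and miR-93 (0.963). miR-15a was most like miR-29a (0.926), miR-21 (0.828) and miR-16 (0.814), and miR-16 most like miR-106b (0.832), miR-15a (0.814) and miR-29a (0.776).

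The tested relatives by seed, miR-322 and miR-503, rose between the outer zones. miR-322, with the same seed, and miR-503, with a seed differing in its last base, were 4.94-fold and 3.24-fold higher in the hypertrophic than in the proliferative zone (limma adjusted p = 4.40e-04 and 0.00169). The log2 signal of miR-322 was 7.16 and 6.57 on the proliferative, 8.94 and 8.98 on the prehypertrophic and 9.02 and 9.32 on the hypertrophic arrays. That of miR-503 was 6.65 and 6.47, 8.48 and 8.64, and 8.07 and 8.44 in the same order, so both were already higher in the prehypertrophic zone (limma adjusted p = 0.00108 each). Whether their change differs from that of each member was not tested. miR-1907, listed as a candidate relative by name with its seed not compared here, was well above background on 1 array only and was not tested. The passenger strands miR-15a*, miR-15b* and miR-16* were well above background on no array, and those of miR-195 and miR-497 have no probe by that name.

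Of the proliferation list, the miR-17 cluster and its paralogues, 12 of 13 were on the array and 9 were tested, and 0 passed limma in any of the 3 comparisons. Its brightest members differed between the outer zones by -0.12 (miR-92a), 0.18 (miR-19b), 0.26 (miR-20a) and -0.44 (miR-25). The list median was 0.04, beside -0.00 for all tested. Of 21 miRNAs listed for cell cycle arrest, 12 were tested, 4 fell between the outer zones and 8 did not pass by limma, beside 8.85% called lower among all tested. Of the 12, 9 belong to the let-7 family with miR-98, so the count and the list median of -0.76 describe mainly that family. Its brightest members gave -0.90 (let-7c), -1.07 (let-7b), -0.87 (let-7a) and -0.67 (let-7f, limma adjusted p = 0.137). The fourth call was let-7e (-1.39). The other 3 tested miRNAs, miR-26a (-0.18), miR-26b (-0.28) and miR-29a (0.51), did not pass, and these 3 and let-7e were named after their values were seen. The miR-34 and miR-449 miRNAs were well above background on no array.

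One blood marker, miR-451 of red blood cells, rose between the outer zones, by 4.18 on the log2 scale (limma adjusted p = 9.57e-07), and so did 1 endothelial marker, miR-126-3p. The summed scaled signal of 8 blood miRNAs was 26.8 to 43.3 on the proliferative arrays, 45.2 to 47.3 on the prehypertrophic arrays and 265 to 290.0 on the hypertrophic arrays, most of it miR-451. The other 2 blood miRNAs seen on any array were miR-223, which did not pass (adjusted p = 0.0591), and miR-486, which was not tested and highest on a proliferative array. The other 5 were well above background on no array. Of 2 endothelial miRNAs, miR-126-3p had signal above background in the hypertrophic pair alone (summed scaled signal 34.7 to 47.2, and 0 elsewhere), and miR-126-5p nowhere. miR-126-3p thus entered the test only through the zone where it was high, and the size of its rise depends on the floor. The chondrocyte sum was 5609 to 9509, 6030.0 to 6060.0 and 3376 to 4409 in the same order. miR-15 and miR-16 family members are also present in blood cells, and the part of these cells in the values above was not tested. The slide had 2 rows: the hypertrophic pair was in the first, the prehypertrophic pair in the second, and the proliferative pair 1 in each. Between the later zones, row and zone can therefore be separated only through the proliferative pair. With the row as a block, the differences from the prehypertrophic to the hypertrophic zone grew to -1.54 for miR-15b, -1.52 for miR-195 and -1.60 for miR-497, with 0 calls by limma (adjusted p = 0.0978 to 0.103).

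**Figure D4:**
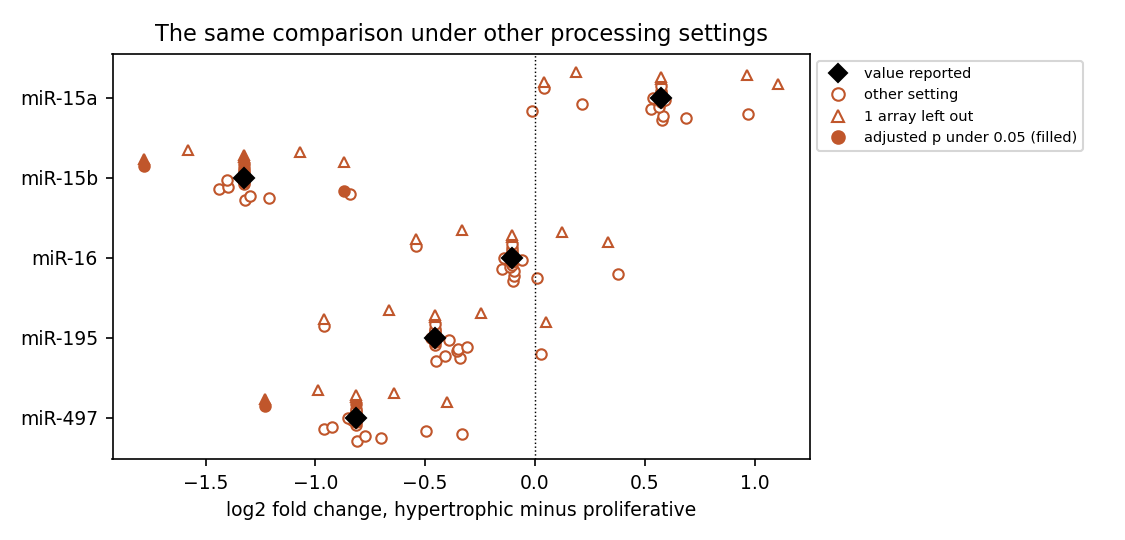
Log2 fold change between the hypertrophic and proliferative zones (horizontal axis) of each member as reported (diamond), under other processing settings (circles) and with 1 array left out (triangles), filled where the limma adjusted p was under 0.05. miR-15b and miR-497 stay below 0 throughout, at -1.78 to -0.84 and -1.23 to -0.33, while miR-16, miR-195 and miR-15a reach both signs.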

How the data were processed

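A set of 6 1-colour Agilent arrays were used. Per the file headers, Feature Extraction 10.7.3.1 gave the deposited intensity per spot, with background subtracted. The authors' deposited log2 table came from GeneSpring per the series' design text. Set against the scanner data, its columns matched log2 of each miRNA's total signal, raised to at least 1, less 1 constant per array, with departures up to 1.28e-06. Its column medians ran from -4.94 to -4.25.

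Outlier-flagged spots were dropped, and processed signals were averaged per probe, scaled, floored at 12.7 and logged. limma 3.58.1 in R 4.3.3 was fitted to all 6 arrays and to 226 miRNAs. For these, the brightest probe was well above background throughout 1 or more zones. Benjamini-Hochberg adjustment ran over all 226, with a threshold of 0.05. Only the limma fit was tested on simulated data, which had no gaps shared between miRNAs of an array. The scaling, floor and filter steps were not part of that test. The normexp alternative used median spot signals in place of mean signals. Members, lists, naming rule and alternatives were chosen with earlier results of these data known. The rule named members, passenger strands, seed relatives, the 3 most correlated miRNAs per member and the 4 brightest of each list. The array's miR-195 and miR-497 were matched to Mir195a and Mir497 through RefSeq synonyms.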

Additional observations from a re-analysis of the deposited data

How the results depend on the processing

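With 2 arrays per zone, 1 array can make or end a call, and the causes of the shifts below were not tested. The outer-zone fall of miR-15b was not called with the 75th percentile of all probes (-1.32), median scaling (-1.21), quantile normalization (-1.30), no scaling (-0.84), total signal per miRNA (-1.44), the authors' deposited table (-1.40), a floor of 2 times the main one or no filter (-1.33 each) or the mean of all probes (-1.40). In each of these 9 settings 0 members were called, against 2 with the slide row or the run of title numbers as a replicate block. Between the outer zones the row block rests on the first proliferative array alone and gives the values of the fit without the second, so it is no separate check. The added member was miR-497, at -1.23 and -0.81. The F test of miR-15b passed with the lower floor (adjusted p = 0.0304), the filter on all arrays (0.0254), the row block (0.0369) and the run block (0.0349). Leaving out 1 array, where the lone sample left is assumed to vary like the other zones, gave 0 to 2 members called, and 0.041 to 1.11 for miR-15a, -1.78 to -0.87 for miR-15b, -1.23 to -0.40 for miR-497, -0.54 to 0.33 for miR-16 and -0.96 to 0.0498 for miR-195 between the outer zones. The F test of miR-15b then gave adjusted p = 0.0408 to 0.553.

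Values not called that turned sign between the outer zones were miR-15a with normexp (-0.0146), miR-16 with median scaling (0.00836) and no scaling (0.38), and miR-195 with no scaling (0.026). From the proliferative to the prehypertrophic zone, miR-497 turned with the percentile of all probes (0.078), median scaling (0.091), quantile normalization (0.062), no scaling (0.29), the authors' deposited table (0.13) and the row block (0.37). There miR-15a turned with no scaling (0.00386) and the row block (0.29), miR-16 with the row block (0.039), and miR-195 with normexp (-0.088) and the mean of probes (-0.024). Leaving out 1 array there gave -0.78 to 0.29 for miR-15a, -0.84 to 0.039 for miR-16, -0.45 to 0.56 for miR-195 and -0.46 to 0.37 for miR-497. The row block at this step rests on the second proliferative array alone and gives the values of the fit without the first. From the prehypertrophic to the hypertrophic zone the row block turned miR-15a (-0.25) and miR-16 (-0.58), and leaving out 1 array gave 0.43 to 1.21 and 0.0699 to 0.52. The number of miRNAs called between the outer zones ran from 1 to 46 over all 23 settings, against 33, from 0 to 10 at the first step, against 5, and from 1 to 7 at the second, against 3. The filter on all arrays left no value for miR-15a. No label gives zones shared replicate numbers, so the run block rests on the order of title numbers alone.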
